A study of Danio rerio with 40 samples.

Results

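The genes of purine synthesis, interconversion, salvage and breakdown were followed in the eye and brain of adult zebrafish of a cyp1b1 knockout line. The rule named 49 gene symbols and took the rows of the brain and eye tables whose symbol equals a named one. Of these, 44 were listed in both tables, among 19300 genes in brain and 19429 in eye. The symbols adss, adss1, adss2, pnp4b and uox were not listed in either table.

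The RNA came from brains and whole eyes of adult fish of the wh5 line, in which cyp1b1 is knocked out, with wild-type (WT) fish as controls. There were 40 samples, 5 for each of the 8 combinations of organ, genotype and sex, which gives 10 WT and 10 wh5 samples of mixed sex per organ. Nothing in the labels says whether the WT fish were siblings of the wh5 fish, or whether an eye and a brain came from the same fish. Titles and source fields disagree on the organ in every sample. Organs were taken from the titles. The marker levels below follow the names of the tables and cannot check the organ of a single sample. The values used are the authors' deposited comparisons of wh5 with WT, 1 table per organ, and they give no sample's own value. Library depth is therefore unknown, the sexes could not be separated, and the error of a log2 fold change is the standard error (SE) from the authors' model. A positive log2 fold change means higher in wh5, as read from the names of the tables. The targeted transcript does not check that direction, with a log2 fold change for cyp1b1 of -0.17 (SE 0.14) in brain and 0.54 (SE 0.14, adjusted p = 0.0160) in eye in the authors' deposited tables.

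Cells build purines de novo by attaching ring atoms to phosphoribosyl pyrophosphate (PRPP) until inosine monophosphate (IMP) is complete, and from IMP the path divides into a branch to AMP and a branch to GMP. Salvage enzymes return free bases and nucleosides to nucleotides at lower cost, and breakdown enzymes lead to hypoxanthine, xanthine and urate. In the eye, GTP feeds the cyclic GMP of photoreceptors, and in fish the reflecting pigment cells called iridophores fill with guanine crystals.

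In the eye, 2 members fell and 1 rose by the deposited adjusted p. None of these calls held with the empirical null described below. The gene hprt1l, a copy related to hprt1, the hypoxanthine-guanine salvage enzyme gene, fell in wh5, and so did gmps, whose enzyme makes GMP from xanthosine monophosphate. The AMP deaminase gene ampd3b rose. In the authors' deposited eye table the 3 members called at an adjusted p below 0.05 are 6.82% of the 44, against 1.67% of all listed genes, where 0.973% were called higher and 0.7% lower. In brain none of the 44 passed in the authors' deposited DESeq2 result, where 0.736% of all listed genes did. At an unadjusted p below 0.05 there were 5 members in brain (11.4%, against 8.62% of all genes) and 6 in eye (13.6%, against 14.2%), shares not far from those of all genes. The median log2 fold change of the members was 0.03 in brain and 0.04 in eye, beside -0.0014 and 0.0086 over all genes in the authors' deposited tables.

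Most members, like most genes, had intervals within a change of 1.5-fold. For 34 of 44 members in brain (77.3%, against 69.4% of all genes) and 31 of 44 in eye (70.5%, against 66.2%), the 95% interval of the log2 fold change lay within a change of 1.5-fold in either direction. The interval of gmps in eye, called at 24.6% lower, also lay within this band, so the band does not exclude changes of the size called. The median SE over members was 0.11 in brain and 0.13 in eye in the authors' deposited tables. The widest intervals belonged to genes with few reads in brain, such as guk1b, ampd1 and xdh.

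**Figure D1:**
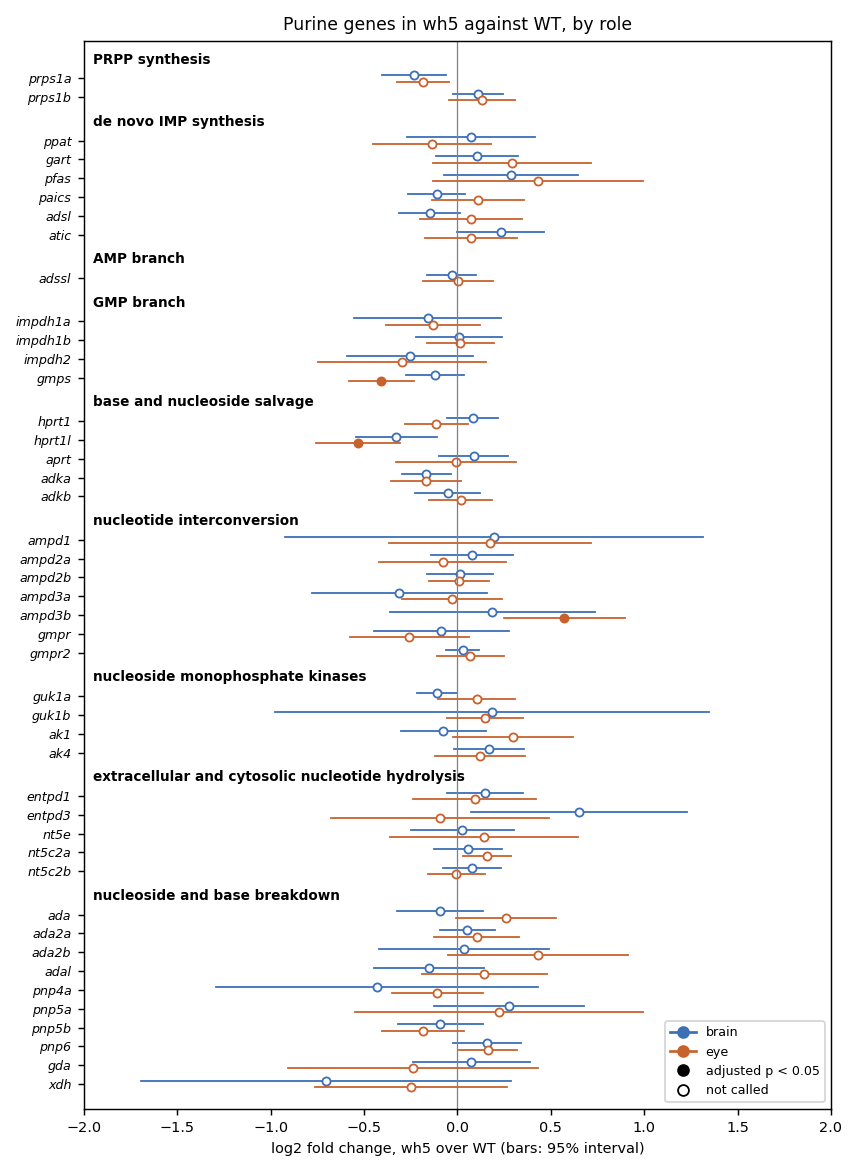
Log2 fold change of wh5 over WT for the 44 listed purine genes, grouped by role, in brain (blue) and eye (orange). Bars are 95% intervals from the authors' SE and filled points have an adjusted p below 0.05. The 3 filled points, gmps, hprt1l and ampd3b, are all from eye.

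At the entry to the pathway, the copies of the PRPP synthetase gene lay on opposite sides of 0 in both organs. For prps1a the authors' deposited tables give log2 fold changes of -0.23 (SE 0.09, adjusted p = 0.274) in brain and -0.18 (SE 0.07, adjusted p = 0.174) in eye. Its partner prps1b had 0.11 (SE 0.07) in brain and 0.13 (SE 0.09) in eye in the same deposited tables of the authors. None of these values was called, although the unadjusted p of prps1a was 0.0078 in brain and 0.0106 in eye. Homologous copies such as these can share reads, and the sources used here do not give how such reads were counted.

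The 6 genes of de novo IMP synthesis held no call in either organ (against 0.736% of all genes in brain, 1.67% in eye). They are ppat, which commits PRPP to the pathway, the multifunctional gart and paics, the amidotransferase gene pfas, the lyase gene adsl and atic, which closes the ring. Their log2 fold changes ran from -0.15 (adsl) to 0.29 (pfas) in brain and from -0.14 (ppat) to 0.43 (pfas) in eye in the authors' deposited tables. In eye 5 of the 6 were above 0 with a median of 0.09, and in brain 4 of the 6, also with a median of 0.09. The gene pfas had an SE of 0.29 in eye, and its 95% interval there, from -0.13 to 0.99, included 0. For paics, with a base mean (mean of normalised counts over both genotypes) of 986.1 in brain and 1011 in eye, the authors' deposited tables give -0.11 (SE 0.08) and 0.11 (SE 0.13). The lowest unadjusted p of the 6 was that of atic in brain, at 0.23 (SE 0.12, unadjusted p = 0.0505, adjusted p = 0.580) by the authors' deposited table.

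Of the branch to AMP only adssl, an adenylosuccinate synthase gene, was listed, besides adsl, which serves both this branch and IMP synthesis. Its log2 fold change was -0.03 (SE 0.07) in brain and 0.0023 (SE 0.09) in eye in the authors' deposited tables, at base means of 1019 and 1882.

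The branch to GMP held the called gene gmps. In eye, at a base mean of 804.5, the authors' deposited table puts gmps at -0.41 on the log2 scale (SE 0.09, adjusted p = 0.00133), which is 24.6% lower, with a 95% interval of the fold from 0.669 to 0.850. In brain the value in the authors' deposited table was -0.12 (SE 0.08, adjusted p = 0.736), a fold of 0.921 with an interval from 0.827 to 1.03. The eye value minus the brain value was -0.29 (95% interval -0.52 to -0.06, unadjusted p = 0.0149), but this difference did not pass adjustment over the 18275 genes in both tables (adjusted p = 0.533). The IMP dehydrogenase genes, which act just before gmps at the rate-limiting step of GMP synthesis, had no call. The authors' deposited tables give impdh2 -0.25 (SE 0.17) in brain and -0.30 (SE 0.23) in eye, and impdh1b 0.01 (SE 0.12) and 0.02 (SE 0.09). The copy impdh1a, related to the human gene IMPDH1 in which mutations cause a form of retinitis pigmentosa, had -0.16 (SE 0.20) in brain and -0.13 (SE 0.13) in eye in the authors' deposited tables.

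Salvage of hypoxanthine and guanine was represented by hprt1 and hprt1l. The eye value of hprt1l in the authors' deposited table was -0.53 on the log2 scale (SE 0.11, adjusted p = 0.00112), with 1596 as its base mean. That is 30.9% lower, with an interval of the fold from 0.592 to 0.807, and hprt1l ranked 52 by p among all genes of the table, with gmps at 57. In brain hprt1l was again below 0, and the authors' deposited table gives it -0.33 (SE 0.11) and the lowest adjusted p of any member there, 0.178. The difference between the organs was -0.21 (95% interval -0.52 to 0.10, adjusted p = 0.764). The other copy, hprt1, whose human counterpart is lost in Lesch-Nyhan disease, was not called, with 0.08 (SE 0.07) in brain and -0.11 (SE 0.09) in eye in the authors' deposited tables. The adenosine kinase gene adka, which returns adenosine to AMP, had nearly equal values in both organs, -0.17 (SE 0.07, unadjusted p = 0.0125, adjusted p = 0.358) in brain and -0.17 (SE 0.10, adjusted p = 0.415) in eye in the authors' deposited tables. Its copy adkb had -0.05 (SE 0.09) and 0.02 (SE 0.08), and the adenine salvage gene aprt 0.09 (SE 0.09) and -0.0082 (SE 0.16), in the authors' deposited brain and eye tables, respectively.

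Among the 7 genes that convert one nucleotide into another, only ampd3b was called in eye (14.3%, against 1.67% of all genes). AMP deaminases turn AMP into IMP. The authors' deposited eye table puts ampd3b at 0.57 on the log2 scale (SE 0.17, adjusted p = 0.0386), with a base mean of 782.4, a fold of 1.49 with an interval from 1.19 to 1.86. In brain, where its base mean was 52.96, the authors' deposited table gives 0.19 (SE 0.28, adjusted p = 0.923), and the difference between organs was 0.39 (95% interval -0.25 to 1.02, adjusted p = 0.789). The other AMP deaminase genes had no call. In eye the authors' deposited table gives ampd3a -0.03 (SE 0.14), ampd2a -0.08 (SE 0.17), ampd2b 0.01 (SE 0.08) and the muscle type ampd1 0.17 (SE 0.28). In brain ampd2b had 0.01 (SE 0.09) at a base mean of 2702, and ampd3a -0.31 (SE 0.24) at 39.2, in the authors' deposited table. The GMP reductase genes gmpr and gmpr2, which lead from GMP back to IMP, were uncalled, from -0.26 (gmpr in eye, SE 0.16) to 0.07 (gmpr2 in eye, SE 0.09) in the authors' deposited tables.

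With an empirical null none of these 3 eye calls held. Such a null rescales the test statistics to their observed centre and spread over all genes. The adjusted p was then 0.127 for hprt1l, 0.140 for gmps and 0.635 for ampd3b, and 38 genes (0.196%) passed in all. The eye statistics had a robust SD of 1.317, against 1.104 in brain. The organs are mixtures of cells, and fewer cells of a type cannot be told apart from less RNA per cell.

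**Figure D2:**
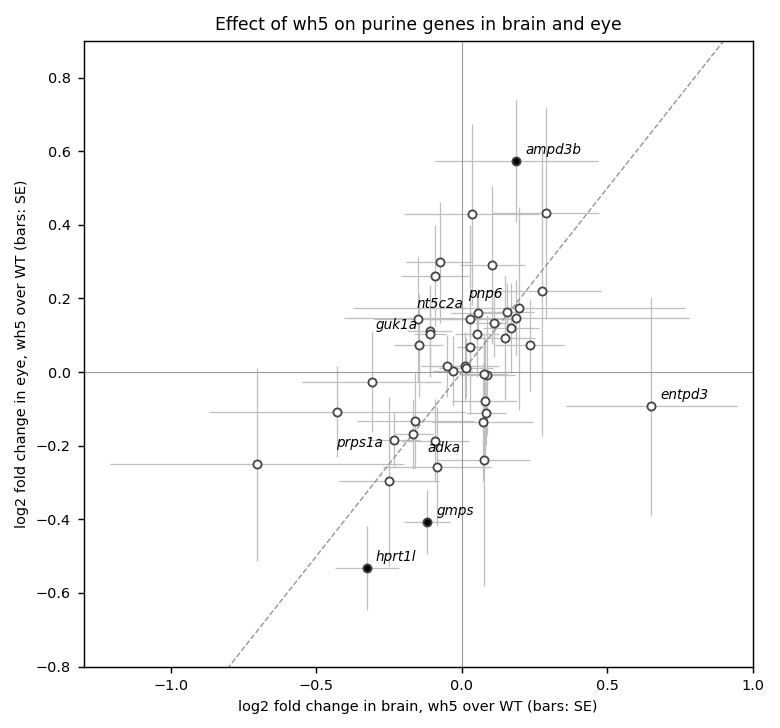
Log2 fold change of wh5 over WT in brain (horizontal axis) and in eye (vertical axis) for the 44 listed purine genes, with bars of 1 SE and the line of equal values dashed. Filled points are called in eye, and names mark genes with an unadjusted p below 0.05 in either organ. The genes hprt1l, gmps and prps1a lie at the lower left and entpd3 far to the right.

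The sign of the log2 fold change was the same in both tables for 29 of 44 members (65.9%), 18 above 0 and 11 below, against 53.6% of all shared genes. A difference between organs passed adjustment for no member by a normal test of the difference of the authors' values (0.0821% of all genes did), and gmps was the 1 member with an unadjusted p below 0.05 (8.19% of all genes). The lowest adjusted p was 0.533.

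Monophosphate kinases, which charge AMP and GMP to their diphosphates, had no called member (against 0.736% of all genes in brain, 1.67% in eye). All 4 were above 0 in eye, from 0.10 (guk1a, SE 0.11) to 0.30 (ak1, SE 0.16, adjusted p = 0.397) in the authors' deposited eye table. The adenylate kinase gene ak1 was at -0.08 (SE 0.12) in brain in the authors' deposited table, at base means of 3618 in brain and 4534 in eye. The guanylate kinase gene guk1a had -0.11 (SE 0.05, unadjusted p = 0.0437, adjusted p = 0.555) in brain in the authors' deposited table. Its copy guk1b had 0.15 (SE 0.10) in eye in the authors' deposited table, and ak4, of mitochondria, had 0.17 (SE 0.10) in brain and 0.12 (SE 0.12) in eye.

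The 5 genes of nucleotide hydrolysis include the cell surface enzymes entpd1 and entpd3, which trim extracellular ATP, nt5e (CD73), which releases adenosine, and the cytosolic nucleotidases nt5c2a and nt5c2b, which act on IMP and GMP. All 5 were above 0 in brain with a median of 0.08, none called (against 0.736% of all genes). The highest value of any member in brain was that of entpd3, to which the authors' deposited table gives 0.65 (SE 0.29, unadjusted p = 0.0273, adjusted p = 0.474) and a base mean of 58.1. In eye entpd3 was at -0.09 (SE 0.30) in the authors' deposited table. For nt5c2a the authors' deposited tables give 0.06 (SE 0.09) in brain and 0.16 (SE 0.07, unadjusted p = 0.0154, adjusted p = 0.207) in eye, and for nt5c2b 0.08 (SE 0.08) and -0.0063 (SE 0.08).

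Of the 10 listed genes of nucleoside and base breakdown none was called (against 0.736% of all genes in brain, 1.67% in eye). The adenosine deaminase gene ada, whose loss in humans causes severe combined immunodeficiency, had -0.09 (SE 0.12) in brain and 0.26 (SE 0.14, adjusted p = 0.367) in eye in the authors' deposited tables. In eye the adenosine deaminase genes ada, ada2a and ada2b and the related gene adal (adenosine deaminase-like) were above 0, from 0.10 to 0.43, none called. Over all genes in eye, 10092 of 19429 were above 0. Purine nucleoside phosphorylases split inosine and guanosine into base and sugar. In the authors' deposited tables pnp6 had 0.16 (SE 0.09) in brain and 0.16 (SE 0.08, unadjusted p = 0.0387, adjusted p = 0.312) in eye. For pnp5b they were -0.09 (SE 0.12) and -0.19 (SE 0.11), and for pnp5a 0.27 (SE 0.21) and 0.22 (SE 0.39), by the authors' deposited tables. The guanine deaminase gene gda was at 0.07 (SE 0.16) and -0.24 (SE 0.34) in the authors' deposited brain and eye tables. The xanthine dehydrogenase gene xdh had the lowest value of any member in brain, -0.70 (SE 0.51, adjusted p = 0.766), where the authors' deposited table has a base mean of 6.203.

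Levels of the members in the tables of both organs were then set side by side. The eye table had a base mean at least 2 times that of the brain table for 14 of 44 members (22.3% of all shared genes), and the reverse was so for 4 (18.7%). The tables were normalised separately, so these ratios are a description without a test. The eye to brain ratio of base means was 731 for guk1b (6.35 in brain, 4643 in eye), 128 for pnp4a (8.39 and 1074), 22.5 for impdh1a (265.6 and 5982), 19.3 for ampd1 (45.4 and 878.7) and 14.8 for ampd3b, in the authors' deposited tables. Among copies, guk1a and impdh1b had ratios of 1.46 and 0.876, so the difference in level lay with 1 copy of each pair. The genes higher in brain were gda (3.12 times), gmpr (2.96), nt5c2a (2.62) and hprt1 (2.05), while hprt1l was 2.08 times higher in eye.

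**Figure D3:**
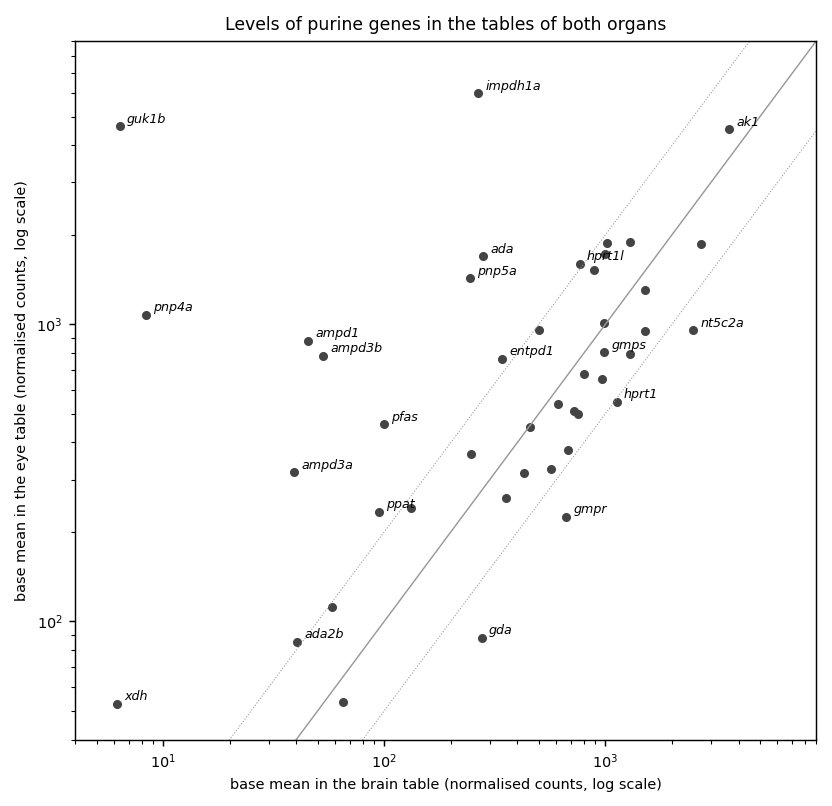
Base mean of each listed purine gene in the brain table (horizontal) and the eye table (vertical), both on log scales and not corrected for gene length. The solid line marks equal values and the dotted lines a ratio of 2. The genes guk1b, pnp4a and impdh1a lie far above the lines and gda and gmpr below.

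Markers of cell types that use these enzymes were examined beside them. In zebrafish pnp4a marks iridophores and xdh xanthophores, the yellow pigment cells. In eye pnp4a had a log2 fold change of -0.11 (SE 0.12) and xdh -0.25 (SE 0.26) in the authors' deposited table, neither called. The other 10 iridophore markers had in eye a median log2 fold change of 0.0092, 5 above and 5 below 0, none called. The other 5 xanthophore markers had -0.18, with 4 below 0 and none called. An unadjusted p below 0.05 in eye was found for 1 of these iridophore markers, higher (10%, against 14.2% of all genes). It was also found there for 1 of these xanthophore markers, lower (20%). In brain it was found for 1 iridophore marker, lower (11.1%, against 8.62%), and for 0 of the xanthophore markers. Median base means of these iridophore markers were 848.9 in eye and 29.9 in brain, where alx4b was not listed. The 7 melanophore markers had a median of -0.02 in eye (none called), and in brain the 5 that were listed also had -0.02 (tyr and slc45a2 were not listed). Of these 5 none was called, and 2 had an unadjusted p below 0.05 (40%, against 8.62% of all genes). They went opposite ways, with oca2 at 0.72 (SE 0.27) and mlpha at -0.76 (SE 0.33) in the authors' deposited brain table.

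Of the 7 photoreceptor markers 1 was called lower in brain, gnat2 (14.3%, against 0.736% of all genes called). An unadjusted p below 0.05 was found there for 6 of the 7 (85.7%, against 8.62% of all genes). All 7 were below 0 there, with SEs from 0.70 to 1.27 and a median of -2.39. They ran from -3.05 (gnat2, adjusted p = 0.0497) to -1.59 (pde6a) in the authors' deposited table. The markers may vary together, and without values of single samples the number of samples behind their values cannot be seen. The call of gnat2 was lost with the empirical null (adjusted p = 0.171) and without the chromosome of cyp1b1 (0.0796). Rhodopsin (rho) had base means of 1359 (brain) and 632710 (eye) in the authors' deposited tables. The members with the highest eye to brain ratios had in brain log2 fold changes of 0.19 (guk1b, SE 0.59), -0.43 (pnp4a, SE 0.44) and -0.16 (impdh1a, SE 0.20) in the authors' deposited table, and the part of photoreceptor RNA in them was not tested. In eye the photoreceptor markers had a median of 0.08, with 4 above and 3 below 0 and none called. An unadjusted p below 0.05 was found in eye for 2 of the 7 (28.6%, against 14.2% of all genes). They went opposite ways, with rho at 0.28 (SE 0.12) and pde6c at -0.25 (SE 0.10) in the authors' deposited eye table.

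Blood and muscle markers bear on ampd3b, ada and ampd1. In eye all 7 leukocyte markers were above 0, from 0.04 (mpeg1.1) to 1.27 (mpx, SE 0.47, adjusted p = 0.148), with a median of 0.24 and none called, in the authors' deposited table. In brain 6 of the 7 were below 0, with a median of -0.10. The 6 erythrocyte markers had medians of -0.19 in eye, with 4 below 0, and -0.06 in brain, and none was called in either organ. The 8 skeletal muscle markers had medians of 0.08 in eye and -0.02 in brain, the 5 endothelial markers -0.08 and -0.02, and the 3 neuronal markers -0.09 and -0.01, with no call. An unadjusted p below 0.05 in eye, against 14.2% of all genes, was found for 2 leukocyte markers, both higher (28.6%). It was also found there for 2 endothelial markers, both lower (40%), 1 muscle marker, higher (12.5%), and 1 neuronal marker, lower (33.3%). In brain it was found for 1 muscle marker (12.5%) and 1 endothelial marker (20%), both higher, against 8.62% of all genes. The part of these cells in the values of ampd3b, ada and ampd1 was not tested.

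Genes that feed or extend the pathway were described in the same way. Of 14 listed adenosine receptor and nucleoside transporter genes in eye, 1 was called (7.14%, against 1.67% of all genes). It was slc28a1, of the family that carries nucleosides into cells with sodium. For slc28a1 the authors' deposited tables give -1.249 (SE 0.31, adjusted p = 0.0102) in eye, where its base mean was 133.6, and -1.16 (SE 0.40, adjusted p = 0.195) in brain at 12.8. With the empirical null its adjusted p in eye was 0.356. The median over this list was -0.04 in eye and 0.05 over the 13 genes listed in brain, where none was called. An unadjusted p below 0.05 was found for 4 of the list in eye, 1 higher and 3 lower (28.6%, against 14.2% of all genes). The higher gene was slc29a2, at 0.84 (SE 0.30, adjusted p = 0.118) and a base mean of 34.4 in the authors' deposited eye table. In brain it was found for 4, 3 higher and 1 lower (30.8%, against 8.62%). The equilibrative transporter gene slc29a1a had 0.38 (SE 0.13, adjusted p = 0.194) in brain and 0.02 (SE 0.12) in eye in the authors' deposited tables. For the adenosine receptor genes adora1b and adora2b, the authors' deposited eye table gives -0.08 (SE 0.09) and -0.30 (SE 0.13, adjusted p = 0.243).

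Further purine kinases and phosphatases, such as the nucleoside diphosphate kinases, had no call among 36 listed in brain and 33 in eye. Over all genes, 0.736% were called in brain and 1.67% in eye. The medians of this list were 0.0083 in brain and 0.11 in eye. In eye 24 of the 33 were above 0, beside 10092 of 19429 over all genes, and in brain 18 of the 36. For nme2b.1 the authors' deposited tables give 0.28 (SE 0.13, adjusted p = 0.297) in eye and -0.09 (SE 0.09) in brain. An unadjusted p below 0.05 was found for 5 of this list in eye, all higher (15.2%, against 14.2% of all genes). In brain it was found for 2, both lower (5.56%, against 8.62%). The genes of folate one-carbon supply, which donate formyl groups to the purine ring, had no call among 20 in brain and 21 in eye, with medians of -0.0062 and 0.0042. At an unadjusted p below 0.05 there were 7 of these in eye, 2 higher and 5 lower (33.3%, against 14.2% of all genes). In brain there were 0 (against 8.62% of all genes). Their lowest value in eye was mthfd1l, of the mitochondrial formate path, at -1.06 (SE 0.48, adjusted p = 0.269) by the authors' deposited table.

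**Figure D4:**
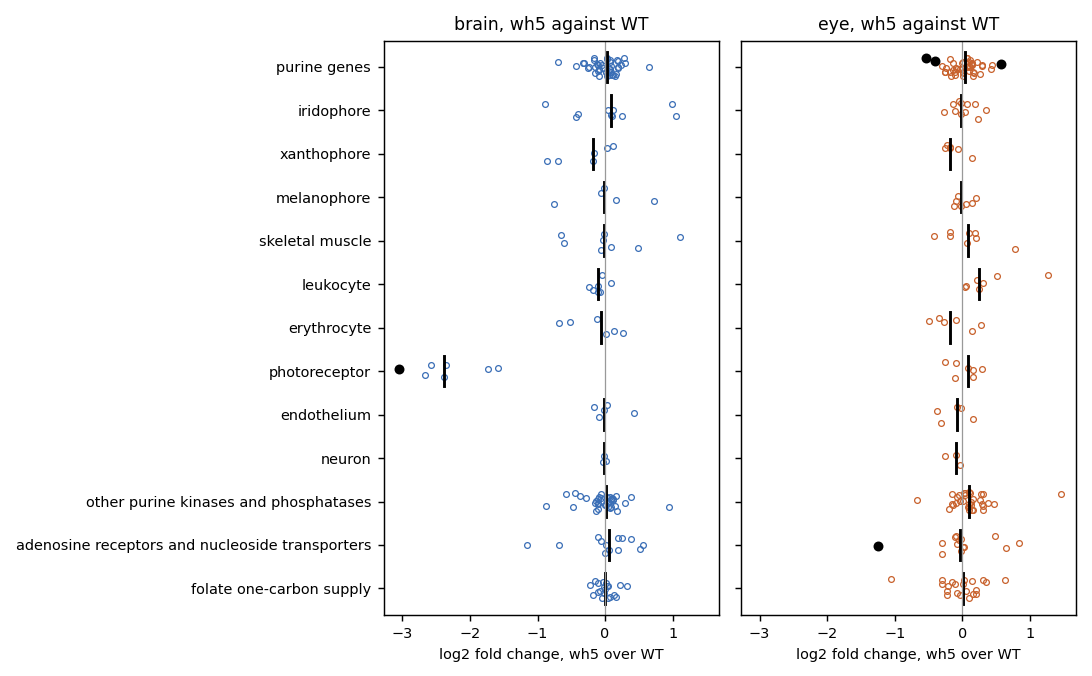
Log2 fold changes of wh5 over WT in brain and eye for the listed purine genes, for 9 lists of cell type markers and for 3 lists of neighbouring pathways. Each point is a gene, filled black where the adjusted p is below 0.05, and vertical bars are medians. The photoreceptor markers in brain lie apart at a median of -2.39, and the other medians lie between -0.19 and 0.24. The iridophore list here includes pnp4a and the xanthophore list xdh.

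Genes near the mutated locus are inherited with it, so the place of the members was read from the RefSeq gene table of GRCz12tu, for names and neighbours only. Of the 44 members, adka and nt5c2a lie on the chromosome that holds cyp1b1, where 8.04% of listed genes were called in brain and 8.51% in eye. Neither was called, and the 3 called members lie elsewhere. The genes gmps, ampd3b, impdh1a and pnp6 share a chromosome on which 14 of 598 listed genes (2.34%) were called in eye and none of 590 in brain. On it gmps and ampd3b are separated by 487 annotated genes.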

How the data were processed

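The tools listed in the submitters' processing notes are STAR, fastp and DESeq2 1.32.0, with GRCz11 as the build. No source used here gives the parameters, the model formula or the filters. Per the file headers, each row of the deposited tables holds a log2 fold change and its SE (base 2 is assumed, as DESeq2 writes it). It also holds a deposited base mean (a signal averaged from normalised counts), a deposited statistic (a score), and a deposited p-value before and after adjustment. Recomputing the Benjamini-Hochberg adjustment over all rows gave the deposited values within a relative error of 0.00453. The depth per sample is unknown, no sample could be left out, and no model was refitted.

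A gene was called at a deposited adjusted p below 0.05. To compare organs, the difference between a gene's 2 log2 fold changes was divided by its SE (root of the sum of both squared SEs), giving a two-sided p from the normal distribution, adjusted over 18275 genes. This treats the organs as independent. A simulation with known changes was also run, without the authors' model, so it does not check the deposited p-values. Intervals are 95% normal intervals. Members, roles and lists were chosen with earlier results of these data known. Members are named with values where they were called or had an unadjusted p below 0.05. So are members with the highest base mean of their role, and copies of any of these. In the other lists only called genes are always named, and further genes with an unadjusted p below 0.05 are mostly counted. Further members and genes (among them atic, pfas, gmpr and mthfd1l) were named after their values were seen. The rule also asked for the most counted genes of each other list, which are given mostly by count and median instead. Members were matched by exact symbol. GRCz12tu places 96.1% of the brain genes and 96.4% of the eye genes on a chromosome. Sequences of the members were not used here. Tools were matplotlib 3.10.9, scipy 1.17.1, numpy 2.4.6 and pandas 2.3.3 in Python 3.11.15.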

Additional observations from a re-analysis of the deposited data

How the results depend on the processing

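The count of 3 called members in eye stayed between 2 and 3 with an adjusted p below 0.01 or 0.1, with a base mean of at least 50, without the chromosome of cyp1b1, with both organs adjusted together, or with a minimum size of 0.5 on the log2 scale (gmps is below it). With the empirical null it was 0, where 38 genes passed in all against 325 as deposited. The count of 0 in brain and the count of 0 members that differ between organs did not change under any alternative run. The medians over members moved by less than their median SE, and the mean weighted by the inverse squared SE was -0.0102 in brain and 0.00028 in eye. For ampd3b, the call nearest to the threshold, the adjusted p ranged from 0.0369 to 0.635 over the alternatives. No paired analysis was possible because the tables hold no values of single samples. For the same reason leaving out each replicate was not run. The 6 members with a base mean below 50 in brain had SEs from 0.23 to 0.59 on the log2 scale. The median SE over all members in brain was 0.11.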
